A study of Mus musculus with 24 samples.

Results

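The genes described here mark the basal cells of stratified and glandular epithelium: Krt5, Krt14, Krt15, Trp63, Col17a1, Itgb4, Itga6 and Lamb3. They were chosen by gene symbol, with earlier results of these data known. They are 8 of the 12394 genes that have a probe set of a single symbol on the Affymetrix MOE430A array, and 14 probe sets are annotated to them. The study profiled total RNA of the ventral prostate, a lobe of the mouse prostate, on 24 arrays. Each of 6 inbred strains (C57BL/6, BALB/c, FVB, 129X1, SWR and AKR) gave 4 biological replicates. All mice were wild type, untreated, 8 weeks old and on a standard diet. No strain is named as a control, so each strain was set against the mean of the other 5. The labels give neither the substrains nor the number of mice behind each RNA sample, and whole lobes were used, so every value mixes epithelium, muscle and other stroma.

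Prostate ducts are lined by tall secretory luminal cells that rest on a thinner layer of basal cells, and the ducts are wrapped in smooth muscle. Basal cells carry the keratins Krt5 and Krt14, which pair into filaments, and Trp63, the transcription factor p63 that is needed for a basal layer to form. Their filaments are tied to the basement membrane by hemidesmosomes, built from the integrin chains Itga6 and Itgb4 and the transmembrane collagen Col17a1, which bind a laminin that contains the Lamb3 chain. In bulk RNA of a whole lobe, fewer basal cells and less RNA per basal cell cannot be told apart.

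The promoters of 4 of the 8 genes were in the RefSeq table used (build GRCm38.p6, the C57BL/6J reference). For Krt14 and Lamb3 the windows lie at starts inside the gene, so only those of Krt5 and Col17a1, which begin at the outermost annotated start, are shown. They are shown because both genes were low in BALB/c and C57BL/6, as given below. Each runs from 250 bases before to 50 bases after the start, 5′ to 3′ on the minus strand. Krt5 is at chr15:101712856-101713155 and Col17a1 at chr19:47691993-47692292. Capitals mark matches to the motifs searched on both strands.
Krt5: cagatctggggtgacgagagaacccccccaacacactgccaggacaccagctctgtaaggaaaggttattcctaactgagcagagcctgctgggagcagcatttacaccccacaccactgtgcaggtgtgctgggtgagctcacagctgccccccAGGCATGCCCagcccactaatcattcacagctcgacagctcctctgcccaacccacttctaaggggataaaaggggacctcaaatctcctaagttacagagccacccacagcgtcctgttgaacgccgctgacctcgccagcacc
Col17a1: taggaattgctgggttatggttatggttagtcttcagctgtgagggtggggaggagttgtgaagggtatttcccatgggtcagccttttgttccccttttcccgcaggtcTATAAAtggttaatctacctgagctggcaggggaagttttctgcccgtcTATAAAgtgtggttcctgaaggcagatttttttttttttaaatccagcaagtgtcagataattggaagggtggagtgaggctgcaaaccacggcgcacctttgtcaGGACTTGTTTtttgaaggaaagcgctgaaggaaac
The motifs were the TATA box TATAAA, the GC box GGGCGG, the AP-1 motif TGANTCA, the AP-2 motif GCCNNNGGC and the half-site of the p53 family, to which p63 belongs. Krt5 held 1 match, to the p53 family half-site, from 95 bases before the start. Col17a1 held 2 TATA boxes and 1 p53 family half-site, and no match overlapped another. Among 32851 RefSeq promoter windows, 8.36% held the p53 family half-site and 13.6% held TATAAA. The GC box was in 35.7% of them, AP-1 in 7.81% and AP-2 in 16.6%, and neither promoter shown held these letters. A match is a description of sequence and not a binding site.

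Intensities are MAS5 values on a linear scale after each array was rescaled to a common trimmed mean. Differences are on the scale log2(intensity + 16), which understates the fold change of dim probe sets. A call is an adjusted p under 0.05 by limma with Benjamini-Hochberg adjustment over all 15775 probe sets tested. A probe set was tested if it exceeded its own array's 40th percentile on at least 4 arrays. Of the 14 probe sets, 13 have a single symbol and 11 of these were tested, at least 1 for each of the 8 genes. The 2 others, both for Trp63, exceeded the 40th percentile on 1 array each. Krt5, Krt15, Itgb4, Itga6 and Lamb3 exceeded it on all 24 arrays. Col17a1 exceeded it on 6 arrays, none of BALB/c or C57BL/6, and the 3 Krt14 probe sets on 12 to 15, so these probe sets passed the filter through the strains where they were brighter.

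The basal genes were not at the same level in the 6 strains. By the brightest tested probe set of each gene, Krt5, Krt14, Krt15 and Col17a1 were lower in BALB/c and in C57BL/6. Krt14 and Krt15 were higher in both SWR and 129X1. The Krt14 probe sets did not all share this: 1455573_at was called higher in BALB/c and in no other strain, and 1460347_at was not called in 129X1. Krt5 was higher in 129X1, and Trp63 and Col17a1 were higher in SWR. AKR and FVB lay between these strains, with no member called in either direction. Of the 11 probe sets, 8 were called in the F test across strains, where 36.4% of all tested probe sets were called. Over the 8 genes, each by its brightest tested probe set, 7 were called and Itgb4 was not.

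**Figure D1:**
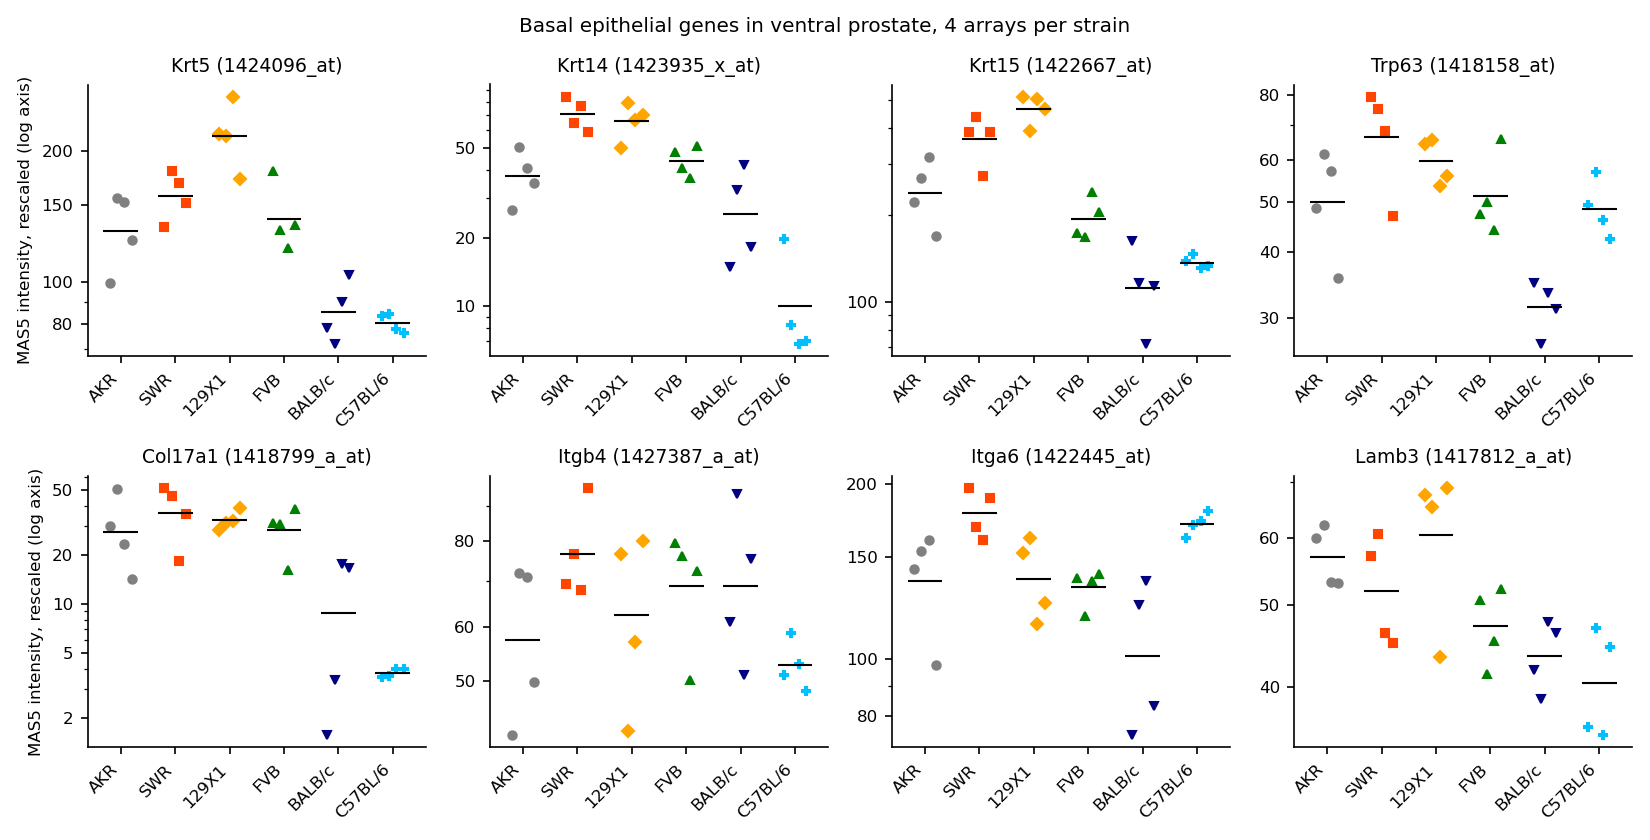
Rescaled MAS5 intensity (log axis) of the 8 genes, each by its brightest tested probe set, with 1 point per array and a bar at the mean of log2(intensity + 16) of the 4 arrays of a strain, turned back to intensity. Krt5, Krt14, Krt15 and Col17a1 sit lowest in BALB/c and C57BL/6; Trp63 and Itga6 sit lowest in BALB/c.

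Krt15, a keratin of basal and progenitor cells, had the widest range of strain means among the 8 genes on the log2(intensity + 16) scale; on the intensity scale those of Col17a1 and Krt14, which are dim, spanned a larger ratio. Its intensities were 514, 392, 504 and 466 in 129X1 and 387, 439, 273 and 389 in SWR. They were 163, 116, 71.8 and 114 in BALB/c and 138, 146, 131 and 133 in C57BL/6. No array of BALB/c or C57BL/6 reached the lowest array of SWR or 129X1. In AKR the values were 221, 270, 318 and 170, and in FVB 173, 167, 240 and 204, so these strains lay between, with some overlap with their neighbours. The means differed 3.77-fold between 129X1 and BALB/c (F test adjusted p = 1.31e-07, limma). Against the other strains Krt15 was 2.31-fold higher in 129X1 (log2 1.20 ± 0.15 SE, adjusted p = 3.54e-06) and 1.75-fold higher in SWR (adjusted p = 0.000804). It was 2.13-fold lower in BALB/c (log2 -1.09 ± 0.15 SE, adjusted p = 1.21e-05) and 1.72-fold lower in C57BL/6 (adjusted p = 0.000758).

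Krt5, the type II keratin of the basal layer, followed a like order. In 129X1 its intensities were 220, 217, 267 and 172, and in SWR 134, 180, 169 and 152. In BALB/c they were 78.0, 72.0, 90.0 and 103, and in C57BL/6 83.2, 84.2, 77.9 and 76.2. The arrays of these last strains overlapped each other and lay below every SWR and 129X1 array. AKR gave 99.1, 156, 153 and 125 and FVB 180, 132, 119 and 135, and the 2 strains overlapped. Krt5 was 1.77-fold higher in 129X1 (log2 0.83 ± 0.11 SE, adjusted p = 1.85e-05). It was 1.53-fold lower in BALB/c (adjusted p = 0.000486) and 1.63-fold lower in C57BL/6 (log2 -0.70 ± 0.11 SE, adjusted p = 0.000169). In SWR the difference was 0.32 ± 0.11 SE on the log2 scale and did not pass (adjusted p = 0.0723).

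Krt14, the type I partner of Krt5, was dimmest in C57BL/6. By its brightest probe set, 1423935_x_at, the intensities were 19.9, 8.24, 6.85 and 7.02 in C57BL/6 and 15.0, 32.8, 42.1 and 18.3 in BALB/c. They were 84.3, 64.5, 76.8 and 58.8 in SWR and 50.1, 79.6, 66.8 and 70.1 in 129X1. Every SWR and 129X1 array was above every BALB/c and C57BL/6 array, and none of the C57BL/6 arrays exceeded its 40th percentile (29.8 to 36.7 over the arrays). AKR gave 26.6, 50.8, 40.8 and 35.1, and FVB 48.1, 40.9, 37.0 and 51.0. Krt14 was 2.40-fold lower in C57BL/6 (log2 -1.26 ± 0.15 SE, adjusted p = 1.65e-06) and 1.36-fold lower in BALB/c (adjusted p = 0.0335). It was 1.76-fold higher in SWR (adjusted p = 0.00064) and 1.65-fold higher in 129X1 (adjusted p = 0.00152). The BALB/c call is lost without BALB/c replicate 1 (adjusted p = 0.196) or 4 (adjusted p = 0.157).

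The Krt14 probe sets differed in their strain pattern. Probe set 1460347_at correlated with 1423935_x_at across the 24 arrays (r = 0.75) and was also lower in C57BL/6 (log2 -0.96 ± 0.17 SE, adjusted p = 0.000355) and BALB/c (-0.58 ± 0.17 SE, adjusted p = 0.0169) and higher in SWR (0.90 ± 0.17 SE, adjusted p = 0.000961). Probe set 1455573_at did not correlate with either (r = -0.06 and -0.16). It was higher in BALB/c, at 55.3, 48.3, 39.0 and 67.2 (log2 0.39 ± 0.12 SE, adjusted p = 0.0287), and missed the F test (adjusted p = 0.0667). A further probe set, 1427841_at, is annotated to both Krt17 and Krt14, so its signal is of no single gene, and it missed the F test (adjusted p = 0.623). The higher call of 1455573_at in BALB/c is lost without rescaling (adjusted p = 0.0687) and without BALB/c replicate 1 (0.0865) or 4 (0.159), and the lower call of 1460347_at without BALB/c replicate 2 (0.1) or 4 (0.111). The direction of Krt14 in BALB/c differed between probe sets, on calls that leaving out 1 array can end, while the lower level in C57BL/6 was called by 2 of the 3 single-symbol probe sets.

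**Figure D2:**
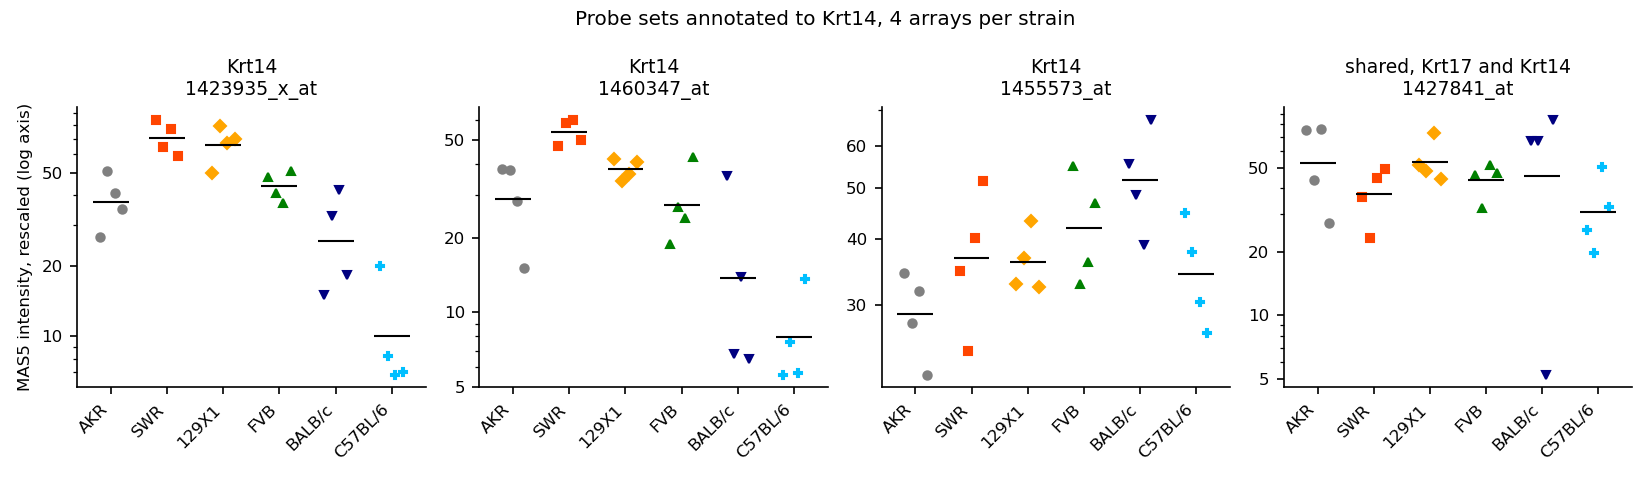
Rescaled MAS5 intensity (log axis) of the 4 probe sets annotated to Krt14, the last of them shared with Krt17, with 1 point per array and a bar at the mean of log2(intensity + 16), turned back to intensity. The 2 at the left are low in BALB/c and C57BL/6; 1455573_at is highest in BALB/c and lowest in AKR.

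Trp63, the p63 factor, was lowest in BALB/c. By probe set 1418158_at its intensities were 35.0, 26.8, 33.5 and 31.2 in BALB/c and 49.3, 56.97, 46.1 and 42.4 in C57BL/6, with no overlap. SWR gave 79.2, 75.1, 68.2 and 46.9, 129X1 64.5, 65.6, 53.6 and 56.1, FVB 47.4, 49.9, 44.1 and 65.7, and AKR 48.6, 61.7, 57.1 and 35.7. All strains but BALB/c overlapped their neighbours in order of level. Trp63 was 1.49-fold lower in BALB/c (log2 -0.58 ± 0.11 SE, adjusted p = 0.000552) and 1.30-fold higher in SWR (adjusted p = 0.0278), while C57BL/6 differed from the others by -0.05 ± 0.11 SE (adjusted p = 0.844). The SWR call is lost without SWR replicate 1, 2 or 3 (adjusted p = 0.144, 0.132 and 0.0771). The other Trp63 probe sets were too dim to test, at 1.72 to 43.7 and 14.4 to 34.9 over the 24 arrays.

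Col17a1, the hemidesmosome collagen, was nearly at the floor of the scale in C57BL/6, at 3.55, 3.63, 3.98 and 3.97. In BALB/c it was 1.57, 3.40, 17.6 and 16.7, in SWR 51.2, 46.3, 18.4 and 35.7, and in 129X1 28.5, 31.2, 32.3 and 38.9. FVB gave 31.5, 30.7, 16.2 and 38.4, and AKR 30.1, 50.5, 23.3 and 14.3. All arrays of SWR and 129X1 were above all of BALB/c and C57BL/6, and no array of these lower strains exceeded its 40th percentile. Col17a1 was 2.09-fold lower in C57BL/6 (log2 -1.07 ± 0.18 SE, adjusted p = 0.000318), 1.60-fold lower in BALB/c (adjusted p = 0.011) and 1.53-fold higher in SWR (adjusted p = 0.0327). The BALB/c call is lost without BALB/c replicate 1 or 2 (adjusted p = 0.0827 and 0.0638), and the SWR call without SWR replicate 1, 2 or 4 (adjusted p = 0.162, 0.148 and 0.0726).

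The integrin chains and the laminin chain varied less. Itga6 by probe set 1422445_at was 74.2, 124, 136 and 83.1 in BALB/c against 162, 170, 173 and 180 in C57BL/6, and these strains did not overlap. It was 1.41-fold lower in BALB/c (log2 -0.50 ± 0.12 SE, adjusted p = 0.005). The second Itga6 probe set, 1422444_at, gave 0.11 ± 0.12 SE there (adjusted p = 0.574), missed the F test (adjusted p = 0.28) and correlated weakly with the first (r = 0.24). Itgb4, the partner of Itga6 in the hemidesmosome, ranged from 41.7 to 95.6 over the 24 arrays and had no call in any strain (F test adjusted p = 0.296). Lamb3 ranged from 35.1 to 68.8 and passed the F test narrowly (adjusted p = 0.0292), with no strain called against the others. Its F call is lost without 129X1 replicate 1, 2 or 4 or C57BL/6 replicate 1 or 3, with adjusted p from 0.0591 to 0.0636. It is also lost with quantile normalization (0.0646), a pseudocount of 64 (0.0536), the smooth muscle covariate (0.0906) and arrays numbered 4 left out (0.0927).

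**Figure D3:**
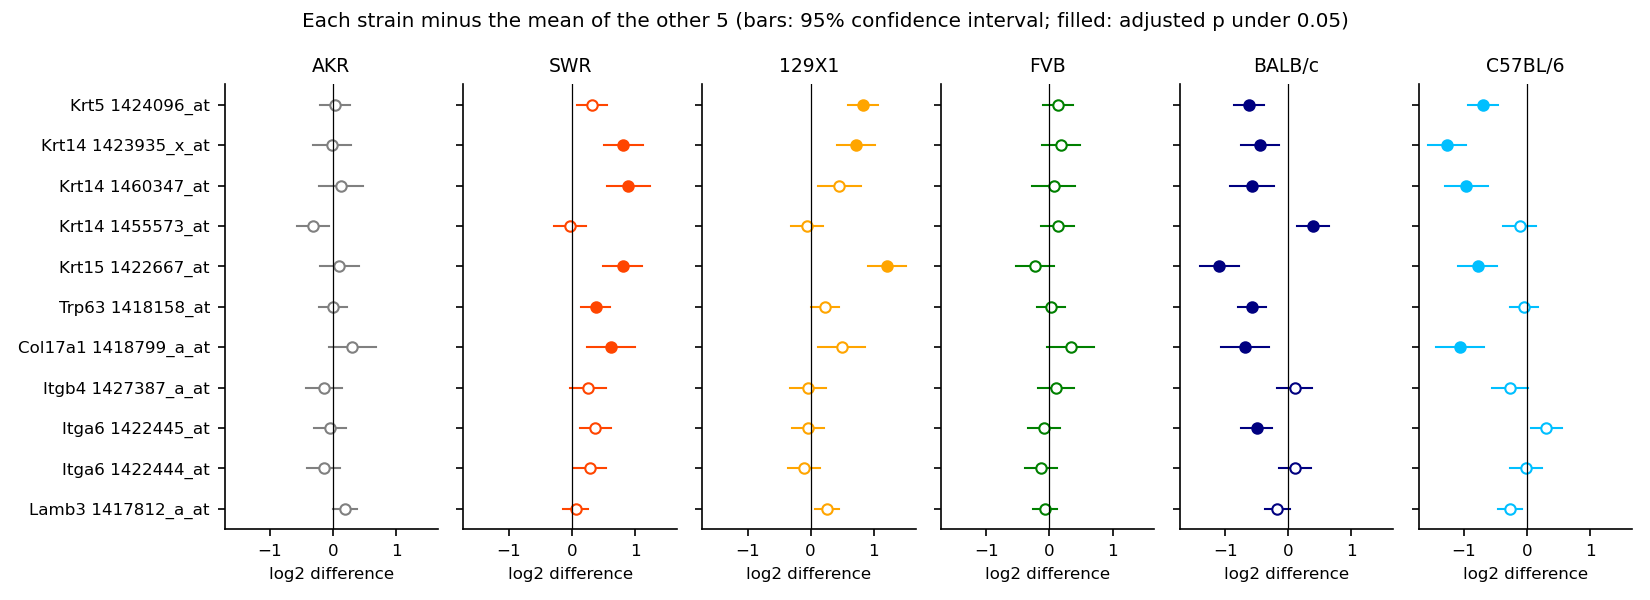
Difference of each strain from the mean of the other 5 (log2 scale) for the 11 tested single-symbol probe sets, with 95% confidence intervals as bars and filled points for an adjusted p under 0.05. Calls are to the right in SWR (5) and 129X1 (3), to the left in C57BL/6 (5) and BALB/c (7), and 1 Krt14 probe set is to the right in BALB/c.

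Counted over the 11 probe sets, 7 were lower and 1 higher in BALB/c, where 10.6% of all tested probe sets were lower and 8.3% higher. In C57BL/6, 5 were lower and none higher, against 5.45% and 5.65% of all. The Krt14 and Col17a1 probe sets among these calls passed the filter through brighter strains, and no C57BL/6 array exceeded its 40th percentile for them. The same probe sets are among the lower calls in BALB/c and the higher calls in SWR. In SWR 5 were higher and none lower (5.52% and 5.04% of all), and in 129X1 3 were higher and none lower (6.38% and 5.27% of all). None was called in AKR, where 4.67% of all were higher and 5.12% lower, or in FVB, with 3.45% and 3.65%. Counted by gene, each by its brightest tested probe set, 6 of 8 were lower in BALB/c and 4 in C57BL/6. By the same count 4 were higher in SWR and 3 in 129X1. The median difference over the 8 genes was -0.54 in BALB/c and -0.48 in C57BL/6, against -0.01 in both over all tested probe sets. It was 0.37 in SWR and 0.38 in 129X1, against -0.02 and 0.01 over all. Without SWR replicate 1 or 2 the SWR count is 3, and without BALB/c replicate 1 or 4 the BALB/c count is 5. As the genes were chosen with earlier results known, the shares set beside these counts are a description and not an independent test.

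The lowest strains and the highest strains were also set directly against each other, comparisons chosen after these values were seen. Between BALB/c and C57BL/6, 3 of the 11 probe sets were called, where 14.6% of all were called. Trp63 was 1.36-fold lower in BALB/c than in C57BL/6 (adjusted p = 0.0358), Itga6 by 1422445_at was 1.59-fold lower (adjusted p = 0.00478) and Krt14 by 1423935_x_at was 1.60-fold higher (adjusted p = 0.0163). The Trp63 call is lost without BALB/c replicate 2 or 4 or C57BL/6 replicate 1, 2 or 3 (adjusted p from 0.0561 to 0.107), and that of Krt14 without BALB/c replicate 2 or 3 or C57BL/6 replicate 3 (0.0534 to 0.0631). Without BALB/c replicate 2 or C57BL/6 replicate 3 the count is 1, leaving Itga6. Krt5 differed by 0.07 between these strains (95% confidence interval -0.23 to 0.38) and Krt15 by -0.26 (-0.65 to 0.14). Between SWR and 129X1 none of the 11 was called, where 9.2% of all were called. The largest log2 difference there among the 8 genes was that of Krt5, at -0.42 (95% confidence interval -0.72 to -0.12, adjusted p = 0.081).

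Across the 24 arrays the members rose and fell together to different degrees, which is described here without a test because all values share the same arrays and strains. Krt5 and Krt15 had r = 0.83, Krt14 and Col17a1 0.82, and Krt5 and Krt14 0.81. Krt14 and Col17a1 both passed the filter through the strains where they were brighter. Itgb4 reached at most 0.33 with any other member, and Itga6 reached 0.61 with Trp63 and at most 0.29 with the rest. The mean over all 28 pairs was 0.46, against 0.01 over pairs of all 9431 tested genes. With each strain's mean removed, the mean over the 28 pairs was 0.17, against 0.005 over pairs of all tested genes. The 28 pairs then ranged from -0.35 to 0.51, and Krt5 and Krt15 had r = 0.02.

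**Figure D4:**
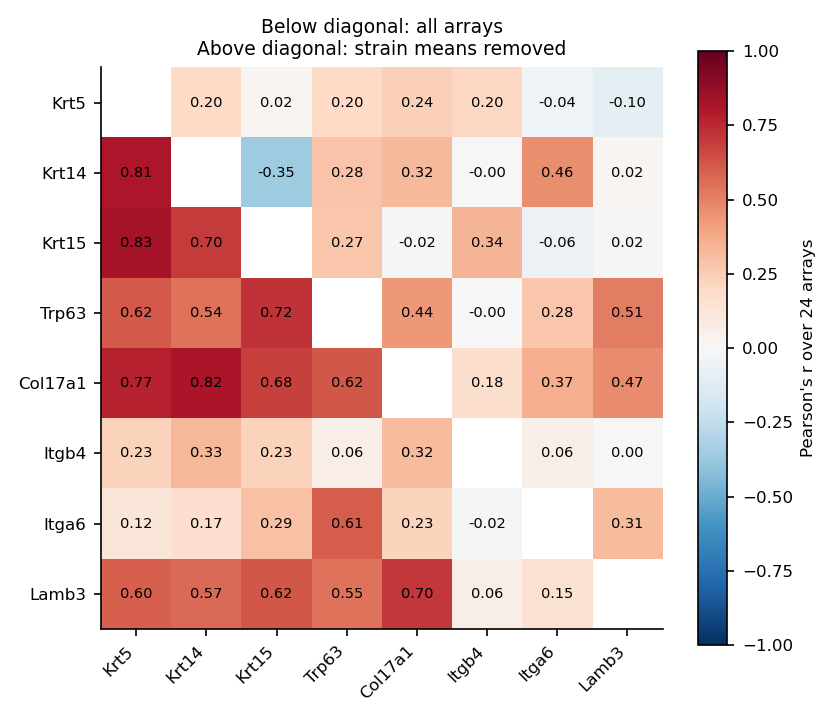
Pearson's r between the 8 genes over 24 arrays, below the diagonal as measured and above it with strain means removed. The keratins, Trp63, Col17a1 and Lamb3 have r from 0.54 to 0.83 with each other below the diagonal; the same pairs lie between -0.35 and 0.51 above it.

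A basal score, the mean over the 8 genes of the centred log2 value, averaged 0.38 ± 0.12 (SD, n = 4) in SWR and 0.38 ± 0.04 in 129X1. It was -0.41 ± 0.09 in BALB/c and -0.43 ± 0.06 in C57BL/6, and 0.04 ± 0.24 in AKR and 0.04 ± 0.12 in FVB. The score includes Krt14 and Col17a1, which passed the filter through the strains where they were brighter, so its strain means and correlations are a description. Markers of some other cell types moved with the basal score. The smooth muscle list had 8 of 8 genes called in the F test (36.4% of all probe sets). In BALB/c 7 of 8 were lower (10.6% of all) and in C57BL/6 1 (5.45%). In FVB 7 were higher (3.45% of all) and in 129X1 4 (6.38%). In SWR 4 were higher (5.52% of all) and 1 lower (5.04%), and in AKR 1 was lower (5.12%). The lower ones in BALB/c included Myh11, the smooth muscle myosin heavy chain (log2 -1.43, adjusted p = 3.56e-07), and Acta2, smooth muscle actin (log2 -0.62, adjusted p = 0.000487). The summed intensity of that list was 4606 to 4842 on the BALB/c arrays and 5484 to 12640 on the others. Its score correlated with the basal score at r = 0.71 over 24 arrays (Spearman's rho 0.66) and at 0.17 with strain means removed.

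The strains differed in how the scores combined. FVB had the highest mean smooth muscle score (0.45 ± 0.13, SD, n = 4) at a basal score near 0, and C57BL/6 had a smooth muscle score of -0.21 ± 0.23 at the lowest mean basal score. AKR, at a similar smooth muscle score of -0.18 ± 0.15, had a basal score of 0.04. With the smooth muscle score added to the fit as a covariate, all 5 C57BL/6 calls were kept, 4 of 5 in SWR and 2 of 3 in 129X1. Over all probe sets, calls fell from 1750 to 1069 in C57BL/6, from 1666 to 1086 in SWR and from 1837 to 636 in 129X1. The Krt14 and Col17a1 probe sets among the C57BL/6 calls passed the filter through brighter strains. None of the 8 BALB/c calls was kept, and 285 of all probe sets were called there in place of 2985. The standard errors of those 8 rose, and the 4 BALB/c arrays have the lowest smooth muscle scores of all 24. The size of the BALB/c difference grew with the covariate for 2 of the 7 lower probe sets and shrank for 5. For Krt5 it was -0.69 ± 0.23 SE with the covariate (adjusted p = 0.125) and for Trp63 -0.79 ± 0.21 SE (adjusted p = 0.0513), each larger than without it. For Col17a1 it was -0.32 ± 0.35 SE (adjusted p = 0.722), and for Krt15 -0.83 ± 0.28 SE (adjusted p = 0.146). For Krt14 it was -0.41 by 1423935_x_at and -0.44 by 1460347_at, and for Itga6 by 1422445_at it was -0.43. What part smooth muscle content has in the BALB/c values was not tested.

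Some luminal markers were higher in BALB/c. Of 9 tested, 8 were called in the F test, and 4 were higher and 1 lower in BALB/c. Krt18, a luminal keratin, was higher there (log2 0.63, adjusted p = 2.49e-07), as were Krt8, its filament partner (0.39, adjusted p = 0.00165), Epcam, an epithelial adhesion protein (0.52, adjusted p = 6.74e-05), and Cd24a, a surface glycoprotein (0.71, adjusted p = 0.000285). Hoxb13, a homeobox factor of the prostate, was lower there (-0.30, adjusted p = 0.0183), and Cdh1 and Foxa1 differed by -0.24 and -0.04 without passing. In C57BL/6 2 were higher, Krt18 (log2 0.27, adjusted p = 0.00717) and the epithelial cadherin Cdh1 (0.40, adjusted p = 0.0454), and the membrane serine protease Tmprss2 was lower (-0.95, adjusted p = 1.52e-05). The luminal score correlated with the basal score at r = -0.54, and at -0.06 with strain means removed.

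**Figure D5:**
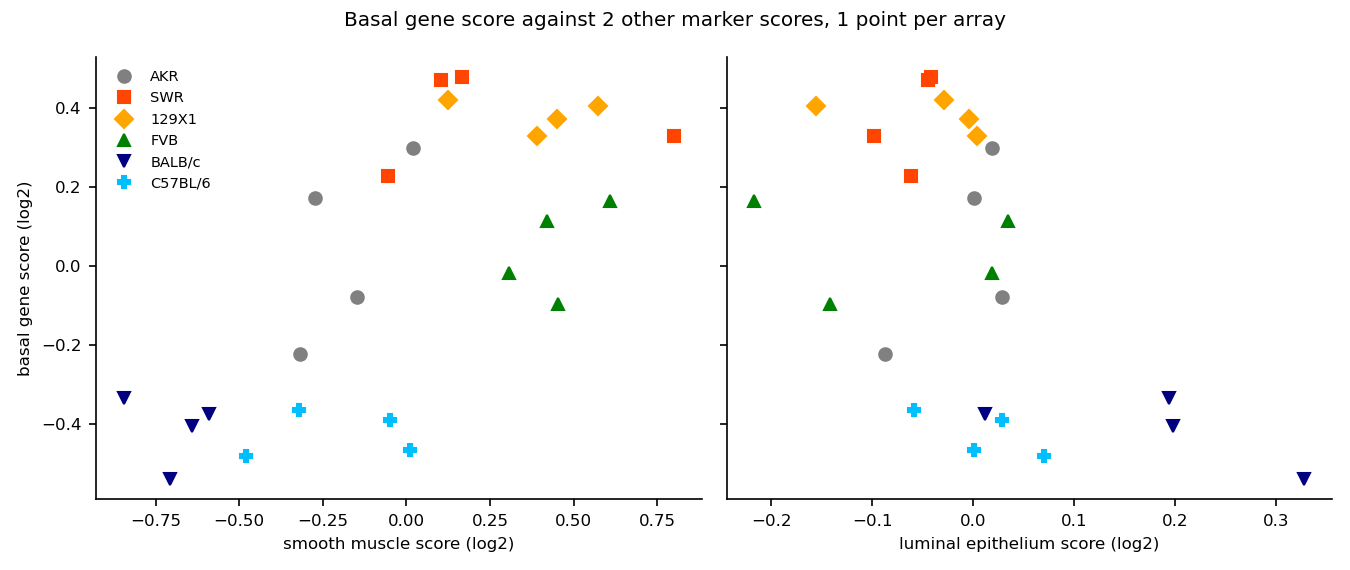
Basal gene score of each array against its smooth muscle score (left) and its luminal epithelium score (right), both means of centred log2 values, 1 point per array. BALB/c arrays are low in the basal and smooth muscle scores; FVB arrays are high in the smooth muscle score without a high basal score; C57BL/6 arrays are as low in the basal score as BALB/c.

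The remaining cell type lists were small. Of the endothelial markers 2 of 4 tested were called in the F test, and their score correlated with the basal score at r = 0.65 (0.09 with strain means removed). Adipocyte markers were higher in FVB and BALB/c and lower in C57BL/6, 4 of 4 in each, and their score had r = -0.15 with the basal score. They varied within strains. Their summed intensity was 316.9 on FVB replicate 1 against 2171 to 4306 on the other FVB arrays. It was 545.9 on BALB/c replicate 2 against 1463 to 3862 on the other BALB/c arrays. All 4 tested secretory markers of the ventral prostate were called, with r = -0.16. Of the keratinizing squamous list only Krt4, a keratin of mucosal epithelium, was called among 4 tested. Krt4 was lower in C57BL/6 (log2 -2.43, adjusted p = 2.22e-07) and BALB/c (-0.92, adjusted p = 0.0102) and higher in 129X1 (0.98, adjusted p = 0.00909) and SWR (0.94, adjusted p = 0.0149), so that the strains called low and high were those of Krt15. Schwann cell markers (2 of 3), urothelial markers (1 of 2) and skeletal muscle markers (2 of 5) had r of 0.18, -0.36 and 0.35 with the basal score. With strain means removed these values were -0.50, -0.33 and -0.09. The part of these cell types in the basal values was not tested.

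The partners of the hemidesmosome and basement membrane did not share a single strain pattern. Of 13 tested, 6 were called in the F test, where 36.4% of all probe sets were called, and their score had r = 0.51 with the basal score (0.11 with strain means removed). Dst, which includes the hemidesmosome plakin BPAG1, was higher in AKR (log2 0.79, adjusted p = 1.02e-05) and SWR and lower in C57BL/6 (-0.69, adjusted p = 5.36e-05) and BALB/c (-0.42, adjusted p = 0.00522). Itga3, an integrin chain that also binds laminin, was lower in C57BL/6 (-0.43, adjusted p = 0.00583). Col4a1, a basement membrane collagen chain, was higher in 129X1 (0.64, adjusted p = 3.43e-05) and lower in C57BL/6, AKR and BALB/c. Nid1, a basement membrane linker, was lower in AKR (-1.10, adjusted p = 3.98e-05) and higher in FVB and SWR. Lamc1, a laminin chain, was higher in FVB, and Col4a2 had no strain called. Lama3, the partner of Lamb3 in its laminin, missed the F test (adjusted p = 0.879).

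Of other genes of basal and stratified epithelium, 14 were tested and 4 were called in the F test (28.6%), where 36.4% of all probe sets were called. The score of this list did not track the basal score over the 24 arrays (r = 0.00). The basal score thus describes the 8 members and not these further basal genes. With strain means removed r was -0.50, and the Schwann cell list also had -0.50. Ly6d, a surface protein of epithelial cells, was higher in 129X1 (log2 0.51, adjusted p = 0.0078) and lower in BALB/c (-0.45, adjusted p = 0.0134). Perp, a desmosome protein that p63 activates, was higher in SWR (0.69, adjusted p = 0.000109) and FVB and lower in BALB/c (-0.58, adjusted p = 0.000381) and 129X1. Serpinb5, or maspin, was higher in SWR (0.84, adjusted p = 0.00273) and lower in 129X1 (-0.97, adjusted p = 0.000488), and Cav1, of caveolae, was higher in FVB and 129X1. Among 13 genes linked to Trp63, 4 were called in the F test (30.8%), and their score had r = 0.58 with the basal score (0.12 with strain means removed). Cdkn1a, the cell cycle inhibitor p21, was higher in SWR (0.73, adjusted p = 0.00247) and lower in BALB/c and C57BL/6. Notch1 was lower in BALB/c (-0.52, adjusted p = 0.0179) and higher in FVB (0.53, adjusted p = 0.0335). The AP-2 factor Tfap2a was lower in BALB/c (-0.36, adjusted p = 0.00564). Tfap2c was lower in SWR (-0.39, adjusted p = 0.0325).

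The 10 genes outside the list whose levels tracked the basal score most closely over 24 arrays had r from 0.83 to 0.89. They were Cp, Atp2a2, Lbp, Nfia, Ccnd2, Tgm2, Flot2, Nap1l1, Ermp1 and Isoc1. Each is given by its probe set of highest r, so the values are of that probe set. All but Lbp and Ermp1 had other tested probe sets, 6 each for Cp, Ccnd2 and Nap1l1, which are not described here. Cp, the copper protein ceruloplasmin, had r = 0.89, with mean log2 values of 8.69 in 129X1 and 8.46 in SWR against 7.74 in BALB/c and 7.66 in C57BL/6. Nfia, a transcription factor, had means of 5.71 in BALB/c and 5.57 in C57BL/6 against 6.99 to 7.22 in the other strains. Ccnd2, the cell cycle regulator cyclin D2, was at 9.48 in SWR and 6.76 in C57BL/6. With strain means removed these correlations ranged from -0.27 for Isoc1 to 0.61 for Tgm2.

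Genes beside the members on their chromosomes, in the order of the RefSeq table, were looked at because a strain difference can extend over neighbours. Of 30 neighbours, up to 2 on each side, 14 were tested and 4 were called in the F test, where 36.4% of all probe sets were called. The 4 were Krt19, Lpp, Pdk1 and Hsd11b1. Pdk1, a kinase of pyruvate dehydrogenase next to Itga6, was higher in SWR and lower in BALB/c and AKR. The neighbours of Krt5 that were tested, which include Krt6a and Krt6b, were not called.

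All 24 arrays correlated best with an array of their own strain, and no columns were identical. Array numbers are limited to 4 a strain, which limits the precision of each value. Skeletal muscle markers were high on SWR replicate 4 and 129X1 replicate 4, with summed intensities of 1132 and 1320 against 178.5 to 748.9 on all arrays of the 4 other strains. With every array numbered 4 left out, 5 of the 11 probe sets pass the F test and 4 are called in BALB/c, with 3 arrays a strain; Col17a1 then fails the filter on low values and is not tested.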

How the data were processed

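Total RNA of ventral prostate was hybridised to Affymetrix MOE430A arrays, 4 per strain. The authors deposited linear intensities, with MAS5 as the only tool given by the submitters' processing notes and no settings; every deposited intensity column has a mean of 143. Detection calls were not used here. Each array was rescaled to the common 2% trimmed mean of 98.7 (91.4 to 105 before), 16 was added and log2 taken. The table holds 22690 probe sets, of which 64 are controls and 6851 failed the filter on low values. Gene names came from the platform annotation: 20393 probe sets had 1 symbol, 691 several and 1606 none. The model (limma 3.58.1, R 4.3.3) had a coefficient for every strain and 18 residual degrees of freedom; an F test over strains and a contrast of every strain with the other 5 were taken from it and checked on simulated data. A gene with several probe sets is represented by the tested one brightest over all arrays, except among the 10 most alike genes. Named partners are those past the F test, and the 10 most alike genes are those of highest r with the basal score, each by its probe set of highest r. The members and lists were chosen with earlier results of these data known. Alternatives were pseudocounts of 4 and 64, no rescaling, quantile normalization, no filter, a replicate block, the smooth muscle covariate, arrays numbered 4 left out, and each array left out in turn. Replicate numbers were not treated as pairs: over 60 same-number pairs the mean correlation of deviations was 0.005 (-0.208 to 0.153). A mean near 0 does not settle whether the number marks a shared effect on some genes. The array numbered 4 had the highest smooth muscle score in every strain but AKR.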

Additional observations from a re-analysis of the deposited data

Results flagged for a closer look

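In 5 of 84 groups of 4 arrays (a strain and a probe set), the highest or lowest array stood apart by Dixon's ratio of its gap to the group's range, above the 95% critical value for 4 arrays; chance gives about 1 in 20. Krt14 by 1423935_x_at in C57BL/6 had replicate 1 at 19.9 against 6.85 to 8.24 (ratio 0.869). The probe set shared by Krt17 and Krt14, 1427841_at, had BALB/c replicate 3 at 5.25 against 66.7 to 84.2 (ratio 0.876). Trp63 by 1451876_a_at had BALB/c replicate 4 at 9.93 against 3.27 to 3.35 (ratio 0.986), and by 1452027_a_at 129X1 replicate 2 at 33.5 against 24.5 to 25.8 (ratio 0.839). Both of these Trp63 probe sets were too dim to test. Lamb3 in 129X1 had replicate 3 at 43.4 against 65.3 to 68.8 (ratio 0.882).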

How the results depend on the processing

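Over 32 alternatives, 24 of them leaving out 1 array, none of the 32 member calls reversed and 17 were kept in every alternative that gave a value. The F test called 8 of the 11 probe sets, and 5 with arrays numbered 4 left out, where Col17a1 failed the filter and gave no value. In BALB/c 8 were called, 4 with arrays numbered 4 left out and 0 with the smooth muscle covariate. Between BALB/c and C57BL/6 3 were called and 1 with a pseudocount of 64. Between SWR and 129X1 0 were called and 1 with a pseudocount of 64. Leaving out 1 array gave 7 to 9 in the F test, 3 to 6 in SWR (3 without SWR replicate 1 or 2), 3 to 4 in 129X1, 5 to 8 in BALB/c (5 without BALB/c replicate 1 or 4), 5 to 6 in C57BL/6, 0 in AKR and FVB, 1 to 3 between BALB/c and C57BL/6, and 0 to 1 between SWR and 129X1 (1 without 129X1 replicate 4). The cause of these changes was not tested, other than that 3 arrays a strain leave fewer samples. With quantile normalization or the smooth muscle covariate the F count stayed at 8, with Lamb3 lost and Krt14 by 1455573_at gained. With a replicate block the F test called 8. Only 3 of 24 arrays correlated best with an array of their own number. Arrays have no count depth; Col17a1 and Krt14 lie at or under the 40th percentile on most arrays of the low strains, where folds are understated.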
